A study of Mus musculus with 6 samples.

Results

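The genes described here are 54 factors that build ribosomes, taken by symbol from a fixed list and read out in bone-marrow-derived macrophages (BMDMs) of C57BL/6 mice. All 54 were found among the 54532 genes in the data, each once, and all 54 were among the 12755 genes that were abundant enough to test. The members were listed by function and not by their values in these libraries, although the list was drawn up with earlier results of the same data in view. BMDMs are macrophages grown from bone marrow in medium conditioned by L929 fibroblasts. Cells of the first group were left untreated (Untr). The second group received lipopolysaccharide (LPS), the bacterial cell-wall component that triggers the acute inflammatory response, at 100 ng/ml for 2 h. Cells of the third group were pretreated with 5 mM metformin, an antidiabetic drug, for 6 h before the same LPS stimulation (Met + LPS). Each group had 2 libraries of polyA RNA, A and B, and none of the 3 groups received metformin without LPS. The age and sex of the mice, and whether libraries were made from separate mice, are not given in the sources used here, so that p-values measure only the spread between these libraries.

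Ribosome production starts in the nucleolus, where RNA polymerase I transcribes a long precursor rRNA. Small nucleolar ribonucleoproteins (snoRNPs) modify this precursor, a large assembly called the small-subunit processome folds and cleaves its first part, and other factors assemble the large subunit around the remainder. The process takes a large share of a growing cell's energy, and many of its genes are known targets of the transcription factor Myc.

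Values are TPM, the share of a gene in all transcripts of a library corrected for gene length, and fold changes are differences in mean log2(TPM + 1) with the standard error (SE) of a limma fit across all tested genes. A gene was called higher or lower at a Benjamini-Hochberg adjusted p under 0.01. The recovered depth was 25457015 to 30762755 reads per library, and the member with the fewest reads in any library was Rrp1b with 124. TPM are shares of a fixed total, and the median of all tested genes shifted by -0.48 (log2) between untreated and LPS libraries and by -0.48 between untreated and Met + LPS libraries. Against the untreated group, counts over the list and its larger roles are therefore given both by TPM and after median-ratio rescaling, which brought these medians to -0.01 and to 0.00. Rescaled values are also given for each member described in LPS vs. untreated. Between Met + LPS and LPS the median shift was -0.03, and rescaling changed little. In bulk RNA, fewer cells of a type and less RNA per cell cannot be told apart. All 8 macrophage markers were tested, and their summed level was 44621 to 46599 TPM in untreated, 37412 to 37903 in LPS and 30877 to 30948 in Met + LPS libraries. Most of this sum was Lyz2, and the markers did not move as one with LPS. By TPM 2 were higher and 5 lower, where 16.2% and 60.1% of all tested genes were. After rescaling 5 were higher and 1 lower, where 30.6% and 27.6% of all tested genes were. In Met + LPS vs. LPS none was higher and 6 were lower on both scales. By TPM 14.5% and 18.0% of all tested genes were. Cd14, a co-receptor for LPS singled out after its values were seen, went the other way from the sum, from 911 and 998 TPM in untreated to 2639 and 2886 TPM in LPS libraries. The 7 markers of neutrophils and granulocyte precursors, none of which was at 0 in every library, summed to 34.3 to 38.3, 29.2 to 30.9 and 46.7 to 49.1 TPM in the same order. T cell markers reached at most 16.6 TPM in sum, with Cd3g at 0 throughout. The sums of B cell, dendritic cell and fibroblast markers stayed at or under 3.18 TPM. The part of these differences in the results below was not tested.

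The members were expressed over a wide range in every group. In the untreated libraries they ran from 6.16 TPM (Rrp1b, library B) to 375 TPM (Npm1, library A), with medians of 28.7 and 30.4 TPM. Summed over all 54 genes, the level was 2467 and 2439 TPM in untreated, 2395 and 2328 TPM in LPS, and 2793 and 2874 TPM in Met + LPS libraries. The sum was thus highest in both Met + LPS libraries, and the 3 groups did not overlap. Upon rescaling the Met + LPS libraries remained highest, at 3151 and 3241, while LPS libraries (2666 and 2609) came to lie above untreated libraries (1916 and 1887). Abundant genes weigh most in such a sum. By TPM the 4 nucleolar chaperones and helicases summed to 596 and 549 in LPS and 821 and 824 in Met + LPS libraries. Npm1, which shares sequence with other genes, averaged 323 and 489 TPM in these groups. The median member was at 29.8 and 27.9 TPM in LPS and 31.9 and 33.8 TPM in Met + LPS libraries. TPM depend on the exon length assigned to each gene, so that levels of different genes compare only as far as these lengths hold.

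To see how LPS alone affected the ribosome biogenesis genes, LPS-treated BMDMs were first compared with untreated BMDMs. On the TPM scale 11 of 54 members were higher in LPS, where 16.2% of all tested genes were, and 28 were lower, where 60.1% of all tested genes were. Their median log2 fold change was -0.24, above the -0.48 of all tested genes, and 43 of 54 members lay above that median. After rescaling, 32 members were higher, against 30.6% of all genes, and 4 were lower, against 27.6%, with a median of 0.27. The direction of the list as a whole therefore turned with the scaling. The 11 members called higher and 4 of those called lower (Imp3, Rrp1b, Wdr12 and Polr1a) held their call on both scales. Another 8 went from lower to higher upon rescaling, and 16 went from lower to no call. Here and below, a fit without 1 library estimates the spread less well, so that calls can be lost for this alone. Leaving out untreated library B gave 9 higher and 16 lower members, and leaving out untreated library A gave 9 and 19. By TPM no member passed the study's cut-off of an absolute log2 fold change of 2 for LPS-responsive genes, which 6.08% of all tested genes passed. After rescaling 1 member, Rrs1 (2.30), passed it, against 6.21% of all tested genes. The study applied its cut-offs to fold changes of read counts from the DESeq2 package. Passing them here and below, on either scale, is therefore not the same measure.

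**Figure D1:**
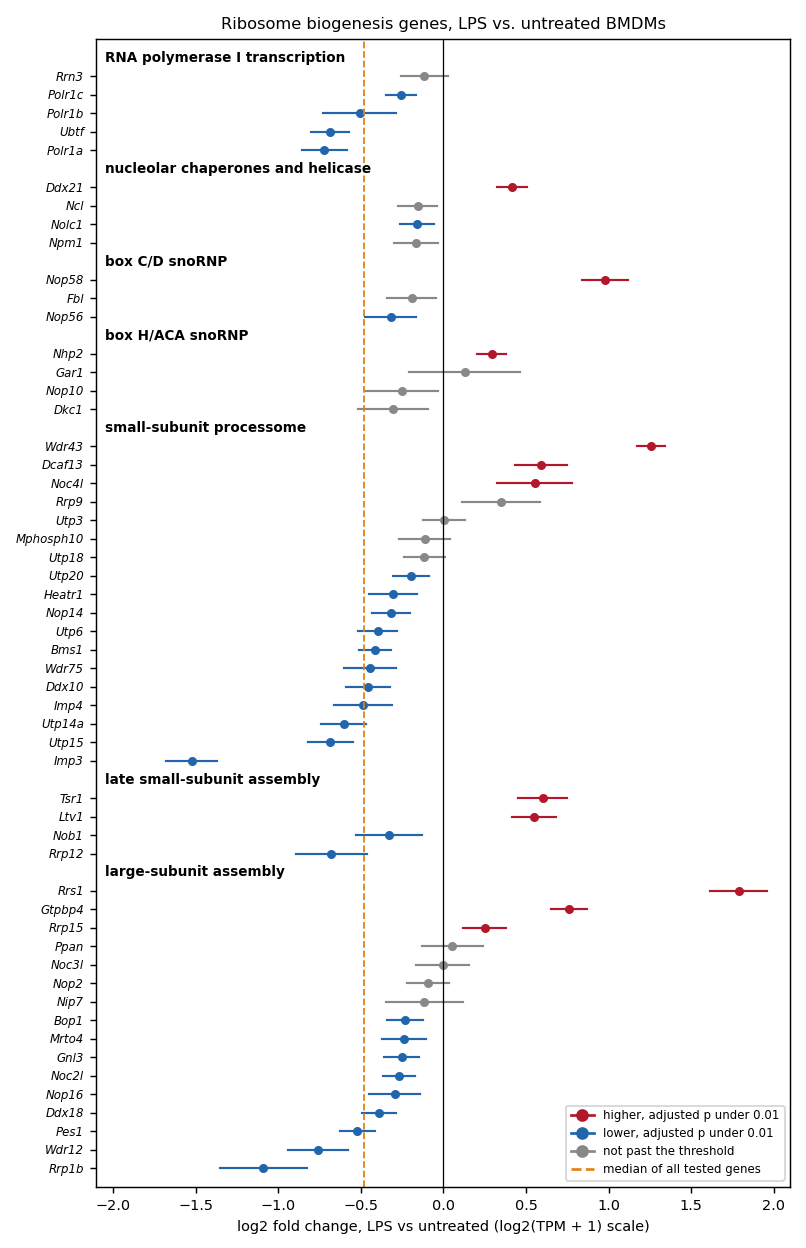
Log2 fold change between LPS and untreated BMDMs (x axis, log2(TPM + 1) scale) for each of the 54 genes, grouped by role, with the 95% confidence interval of the limma fit (n = 2 libraries per group). The dashed line marks the median of all tested genes (-0.48). Of the genes left of 0, 28 were called lower on this scale, of which 4 remained lower and 8 were higher after rescaling.

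The strongest rise was seen for Rrs1, which helps to load the 5S ribonucleoprotein onto the large subunit (chr1:9545408-9547455, GRCm38). Rrs1 was at 43.0 and 37.8 TPM in untreated, 141 and 142 TPM in LPS and 124 and 136 TPM in Met + LPS libraries. Both stimulated groups were clear of the untreated libraries, and the Met + LPS libraries lay just under the LPS libraries. The rise with LPS was 3.50-fold in mean TPM, or 1.79 ± 0.07 (log2, SE, n = 2, limma adjusted p = 1.43e-06), and 2.30 after rescaling.

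Within the small-subunit processome, Wdr43, a scaffold subunit that joins the precursor early (chr17:71615895-71659031), was higher with LPS. It measured 47.5 and 47.9 TPM in untreated, 117 and 114 TPM in LPS and 84.3 and 85.7 TPM in Met + LPS libraries. The 3 groups did not overlap, with LPS on top and Met + LPS between. Its change with LPS was 1.26 ± 0.04 (limma adjusted p = 2.90e-07), and 1.77 after rescaling. Dcaf13 and Noc4l, also of the processome, rose by 0.59 and 0.55 (log2, limma adjusted p = 0.000142 and 0.00131), and by 1.07 and 1.06 after rescaling. Neither Dcaf13 nor Noc4l overlapped between untreated and LPS libraries.

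A sharp fall was observed for Imp3, which with Imp4 and Mphosph10 forms the Mpp10 complex that ties the U3 snoRNA to the precursor (chr9:56937475-56938398). Imp3 stood at 101 and 115 TPM in untreated, 37.2 and 36.2 TPM in LPS and 55.5 and 55.0 TPM in Met + LPS libraries. The LPS libraries were lowest, and Met + LPS libraries lay between them and the untreated ones without overlap. The change with LPS was -1.52 ± 0.06 (limma adjusted p = 1.80e-06), and -1.01 after rescaling. The partners of Imp3 did not move to this extent. Imp4 was at 20.0 and 20.9 TPM in untreated and 14.0 and 14.6 TPM in LPS libraries, a change of -0.49 that became 0.01 after rescaling. Mphosph10 (chr7:64376527-64392268) was at 27.0 and 25.7 TPM in untreated and 25.5 and 23.1 TPM in LPS libraries, -0.11 ± 0.06 (limma adjusted p = 0.145), and 0.39 after rescaling. Utp15 and Utp14a were lower by TPM (-0.69 and -0.60) and were not called after rescaling (-0.19 and -0.11). In all, 3 of the 18 processome genes were higher and 11 lower on the TPM scale, where 60.1% of all tested genes were lower, with a median of -0.31 against -0.48 for all genes. After rescaling 9 were higher and 1 lower, with a median of 0.20. Utp3 (chr5:88554462-88556090), with 121 and 123 TPM in untreated and 116 and 129 TPM in LPS libraries, had the highest mean level of the processome genes and a fold change of 0.00, while after rescaling it was higher by 0.53.

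Core proteins of the snoRNPs differed from one another. Nop58 and Nop56 are paralogous scaffold proteins of the box C/D snoRNPs, in which the methyltransferase fibrillarin (Fbl) acts. Nop58 (chr1:59684971-59719044) was at 11.0 and 10.3 TPM in untreated, 22.1 and 21.6 TPM in LPS and 29.8 and 31.8 TPM in Met + LPS libraries. Its levels climbed from group to group without overlap, and the change with LPS was 0.98 ± 0.06 (limma adjusted p = 8.02e-06), or 1.46 after rescaling. Nop56 (chr2:130274430-130279313), by contrast, was at 37.8 and 39.1 TPM in untreated, 32.0 and 29.3 TPM in LPS and 30.7 and 33.5 TPM in Met + LPS libraries. Its LPS and Met + LPS libraries overlapped and lay under the untreated ones, with a change of -0.32 ± 0.06 (limma adjusted p = 0.00302) that turned to 0.19 upon rescaling. This call was lost without untreated library A or B or LPS library B, with limma adjusted p of 0.0192, 0.0311 and 0.0195. Fbl differed by -0.19 (limma adjusted p = 0.0231), and by 0.31 after rescaling. Box H/ACA snoRNPs guide pseudouridylation. Of their proteins, Nhp2 (chr11:51619735-51623714) was at 88.3 and 89.8 TPM in untreated and 108 and 110.2 TPM in LPS libraries. Nhp2 rose by 0.29 ± 0.04 (limma adjusted p = 0.000304), or 0.81 after rescaling. The pseudouridine synthase Dkc1 (chrX:75095854-75109777) was at 14.8 and 13.1 TPM in untreated and 11.6 and 10.6 TPM in LPS libraries, a difference of -0.30 ± 0.09 that missed the threshold (limma adjusted p = 0.0156) and was 0.18 after rescaling. Gar1 (chr3:129824912-129831396) had the largest SE of the members (0.14), with 16.5 and 13.9 TPM in untreated and 19.2 and 14.5 TPM in LPS libraries. Its groups overlapped, and its value was 0.13 (limma adjusted p = 0.415) and 0.62 after rescaling, where it passed.

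Of the nucleolar chaperones and helicases, Ddx21 rose by 0.42 with LPS (limma adjusted p = 5.56e-05), and by 0.94 after rescaling. Npm1 and Ncl, the most abundant members of this group, had values of -0.17 and -0.16 that missed the threshold (limma adjusted p = 0.0264 and 0.0217) and were higher after rescaling (0.36 and 0.36). Without LPS library A, Npm1 passed on the lower side at -0.24 (limma adjusted p = 0.00608). Nolc1 was lower by TPM (-0.16) and higher after rescaling (0.35).

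The RNA polymerase I genes were lower with LPS in 4 of 5 cases on the TPM scale, where 60.1% of all tested genes were, and their median of -0.51 was close to the -0.48 of all genes. After rescaling 2 were higher and 1 lower, with a median of -0.03. Polr1a, the largest catalytic subunit (chr6:71909053-71984935), was at 16.7 and 16.0 TPM in untreated, 9.74 and 9.28 TPM in LPS and 12.5 and 12.5 TPM in Met + LPS libraries. LPS libraries were the lowest and untreated libraries the highest, with a change of -0.72 ± 0.06 (limma adjusted p = 2.80e-05) and of -0.23 (adjusted p = 0.00887, limma) after rescaling. Ubtf, which binds and opens the rRNA gene promoter (chr11:102304560-102319742), was at 59.0 and 55.8 TPM in untreated, 35.8 and 34.7 TPM in LPS and 36.6 and 38.3 TPM in Met + LPS libraries. Both stimulated groups lay under the untreated one. Its change of -0.69 ± 0.05 (limma adjusted p = 1.67e-05) shrank to -0.17 upon rescaling and no longer passed. Polr1c was lower by TPM (-0.26) and higher after rescaling (0.26). Rrn3, the initiation factor that recruits the polymerase, did not pass on the TPM scale (-0.12, limma adjusted p = 0.109) and was higher after rescaling (0.39).

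Among the 16 genes for large-subunit assembly, 3 were higher and 9 lower with LPS on the TPM scale, where 60.1% of all tested genes were lower, and 11 were higher and 2 lower after rescaling. Their median was -0.24 by TPM and 0.27 after rescaling. Besides Rrs1, the GTPase Gtpbp4 (chr13:8966331-8996083) rose from 19.1 and 19.2 TPM in untreated to 34.0 and 32.3 TPM in LPS libraries, a change of 0.76 ± 0.04 (limma adjusted p = 8.03e-06) that was 1.26 after rescaling. Rrp15 rose by 0.25 (limma adjusted p = 0.00426), or 0.73 after rescaling. Rrp1b (chr17:32036100-32062865), the least abundant member, fell from 6.35 and 6.16 TPM in untreated to 2.63 and 2.21 TPM in LPS libraries, or by 1.09 on the log2 scale (SE 0.11, limma adjusted p = 9.32e-05). For neither Gtpbp4 nor Rrp1b did the groups overlap, and both calls held after rescaling, where Rrp1b was at -0.66. Pes1, Bop1 and Wdr12 form the PeBoW complex, which is needed for processing of the large-subunit rRNAs. Wdr12 (chr1:60069785-60098645) was at 8.02 and 7.59 TPM in untreated and 4.34 and 4.05 TPM in LPS libraries and fell on both scales, by 0.76 ± 0.08 in TPM (limma adjusted p = 8.88e-05) and by 0.31 after rescaling. Pes1 (chr11:3963975-3980004) was at 108 and 103 TPM in untreated and 74.6 and 72.4 TPM in LPS libraries, a difference of -0.52 ± 0.04 that rescaling brought to 0.00. Bop1 (chr15:76452989-76477277) was at 50.5 and 51.6 TPM in untreated and 42.2 and 44.4 TPM in LPS libraries, a difference of -0.23 ± 0.04 that rescaling turned to 0.28. The call of Bop1 was lost without untreated library A or B or LPS library A (limma adjusted p = 0.0145, 0.0223 and 0.0151). The 3 partners of this complex thus held 3 different relations to the median of all genes. Noc2l (chr4:156236010-156247616), at 127 and 130.1 TPM in untreated and 110.0 and 104 TPM in LPS libraries, had the highest mean level of the large-subunit genes. Both Noc2l and Gnl3 were lower by TPM (-0.27 and -0.25) and higher after rescaling (0.26 and 0.25), and the TPM call of Gnl3 was lost without untreated library A or B (limma adjusted p = 0.014 and 0.0102).

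Of the late small-subunit factors, Tsr1 and Ltv1 were higher with LPS on both scales (0.60 and 0.55 by TPM, 1.10 and 1.06 after rescaling). Nob1 and Rrp12 were lower by TPM alone, and after rescaling Nob1 went from -0.33 to 0.17 (limma adjusted p = 0.113). Ltv1 (chr10:13178140-13193168) was at 49.8 and 46.4 TPM in untreated, 72.6 and 68.7 TPM in LPS and 76.8 and 82.2 TPM in Met + LPS libraries, with a change of 0.55 ± 0.06 with LPS (limma adjusted p = 0.000102). Rrp12 (chr19:41862852-41896153) was at 17.6 and 19.7 TPM in untreated, 10.6 and 12.0 TPM in LPS and 15.2 and 17.0 TPM in Met + LPS libraries. For Ltv1 the untreated libraries were lowest and for Rrp12 the LPS libraries were lowest. The change of Rrp12 with LPS was -0.68 ± 0.09 (limma adjusted p = 0.000379) and -0.19 after rescaling, where it no longer passed.

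To determine how metformin pretreatment altered these genes during the LPS response, Met + LPS was then compared with LPS alone. Here 25 of 54 members were higher, where 14.5% of all tested genes were, and 2 were lower (Wdr43 and Bop1), where 18.0% of all tested genes were. The median log2 fold change of the members was 0.27, against -0.03 for all tested genes, and 46 of the 54 were on the positive side, where 46.1% of all tested genes were. After rescaling the same number, 25, were higher (15.6% of all genes) and 1, Wdr43, was lower (17.4% of all genes). Both Met + LPS libraries were above both LPS libraries for 41 members, which was so for 33.8% of all tested genes, and below both for 6, which was so for 40.0%. Leaving out any 1 library gave 17 to 19 members called higher and 1 called lower, with the lowest number without LPS library B or Met + LPS library B. This comparison shares its LPS libraries with the previous one, so that values from both are given side by side and not related to each other. In size, only Utp14a and Gnl3 passed the study's cut-off of an absolute log2 fold change of 0.7 for this comparison, which 8.28% of all tested genes passed.

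**Figure D2:**
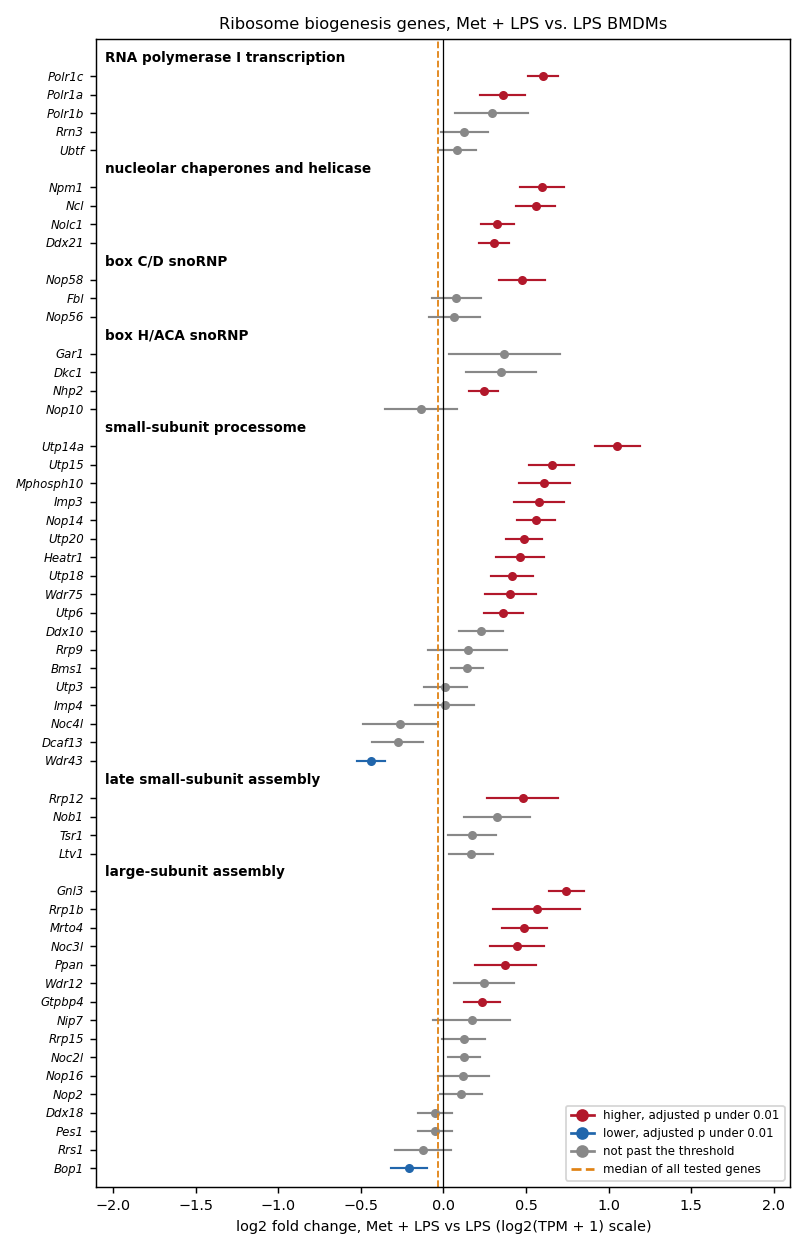
Change upon metformin pretreatment of LPS-stimulated BMDMs (Met + LPS vs. LPS, x axis, log2 fold change on the log2(TPM + 1) scale) for each of the 54 genes, grouped by role, with the 95% confidence interval of the limma fit (n = 2 libraries per group). The dashed line marks the median of all tested genes (-0.03). Utp14a lies farthest to the right at 1.05 and Wdr43 farthest to the left at -0.44.

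In the small-subunit processome 10 of 18 genes were higher and 1 was lower, where 14.5% and 18.0% of all tested genes were. The median was 0.38, against -0.03 for all tested genes. Utp14a activates the helicase that frees the U3 snoRNA from the precursor (chrX:48256862-48282453), and its level was 22.9 and 22.3 TPM in untreated, 14.9 and 14.2 TPM in LPS and 32.5 and 30.0 TPM in Met + LPS libraries. The Met + LPS libraries were the highest and the LPS libraries the lowest, with no overlap among the 3 groups. Metformin pretreatment changed it 2.15-fold in mean TPM, or by 1.05 ± 0.06 (log2, SE, limma adjusted p = 3.76e-05). The whole 95% confidence interval, 0.92 to 1.19, lay above 0.7, which held for 1 of the 54 members. Its exons share 11.5% of their bases with a non-coding gene on the opposite strand that averaged 0.213 TPM. Utp15 (chr13:98246845-98263041), a subunit of the subcomplex that first binds the precursor, was at 22.5 and 24.4 TPM in untreated, 14.5 and 13.9 TPM in LPS and 23.0 and 22.9 TPM in Met + LPS libraries. LPS libraries alone stood low, and Met + LPS libraries fell within the untreated range. The change was 0.66 ± 0.06 (limma adjusted p = 0.000207). In the Mpp10 complex Mphosph10 and Imp3 were higher by 0.61 ± 0.06 and 0.58 ± 0.06 (limma adjusted p = 0.000463 and 0.000564), while Imp4 had a fold change of 0.01 with a 95% confidence interval of -0.17 to 0.18. Mphosph10 reached 38.8 and 36.4 TPM with Met + LPS, above both other groups. The scaffold genes Heatr1, Wdr75, Utp6, Utp18, Utp20 and Nop14 were higher by 0.36 to 0.56 on the log2 scale. Rrp9, a protein of the U3 snoRNP, the GTPase Bms1 and the helicase Ddx10 had values of 0.15, 0.14 and 0.23 that missed the threshold. Wdr43 was lower, with -0.44 ± 0.04 (limma adjusted p = 0.00016). Dcaf13 and Noc4l had values of -0.28 and -0.26 that missed the threshold (limma adjusted p = 0.0122 and 0.0593).

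All 4 nucleolar chaperones and helicases were higher on both scales, where 14.5% of all tested genes were by TPM and 15.6% after rescaling. Npm1, nucleophosmin, which chaperones assembling subunits and histones (chr11:33152287-33163206), was at 375 and 351 TPM in untreated, 339.6 and 307 TPM in LPS and 486 and 491 TPM in Met + LPS libraries. Ncl, nucleolin, was at 118 and 112 TPM in untreated, 107 and 98.5 TPM in LPS and 152 and 151 TPM in Met + LPS libraries. For both, the Met + LPS libraries were above all other libraries. The changes were 0.60 ± 0.06 for Npm1 and 0.56 ± 0.05 for Ncl (limma adjusted p = 0.000281 and 0.000231). Ddx21, a helicase that links polymerase I transcription with rRNA processing (chr10:62580251-62602281), was at 83.8 and 85.3 TPM in untreated, 116 and 111 TPM in LPS and 141 and 139 TPM in Met + LPS libraries. The 3 groups did not overlap, and Ddx21 was higher with metformin by 0.31 ± 0.04 (limma adjusted p = 0.000866). Nolc1, which carries snoRNPs, changed by 0.32 ± 0.04 (limma adjusted p = 0.00106). Npm1 shares sequence with other genes, since 70.6% of its 31-base stretches occurred in no other annotated transcript, and its counts are less certain.

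**Figure D3:**
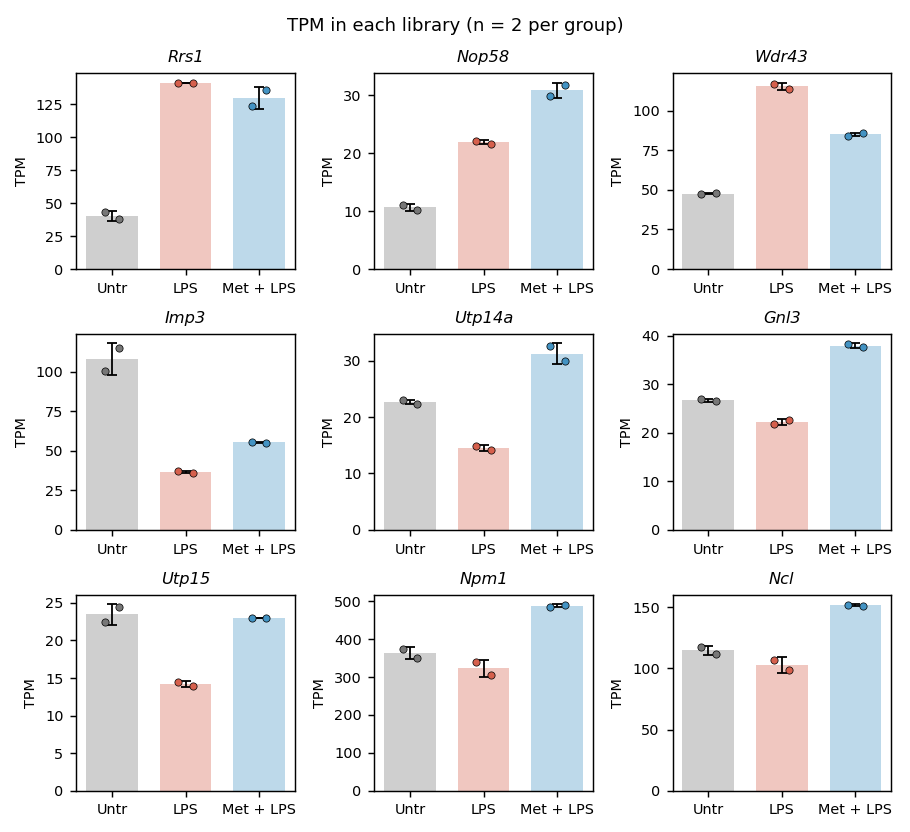
TPM (y axis, from 0, scaled separately per gene) of 9 genes in each library of untreated (Untr), LPS and Met + LPS BMDMs. Bars are means, error bars SD (n = 2) and points the libraries. Utp14a, Gnl3, Nop58, Npm1 and Ncl have both Met + LPS libraries above all others, while Wdr43 peaks in LPS. The LPS libraries of Rrs1 lie just above its Met + LPS libraries, a difference that was not called.

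In RNA polymerase I transcription 2 of 5 genes were higher with metformin and none was lower, where 14.5% and 18.0% of all tested genes were. Polr1c, a subunit shared with RNA polymerase III (chr17:46243920-46248054), was at 38.6 and 38.7 TPM in untreated, 32.3 and 32.1 TPM in LPS and 49.1 and 49.9 TPM in Met + LPS libraries. The Met + LPS libraries were highest, and replicates differed by less than 1 TPM in each group. Its change was 0.60 ± 0.04 (limma adjusted p = 5.81e-05), and that of Polr1a was 0.36 ± 0.06 (limma adjusted p = 0.00243). Polr1a did not pass without LPS library B (limma adjusted p = 0.0162) or either Met + LPS library (0.0145 and 0.0144). Polr1b had a value of 0.29 that missed the threshold (limma adjusted p = 0.039), and Rrn3 and Ubtf had values of 0.13 and 0.08 with intervals of -0.02 to 0.27 and -0.03 to 0.20.

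Core snoRNP genes again differed from one another. Nop58 was higher by 0.48 ± 0.06 (limma adjusted p = 0.000835), while Nop56 and Fbl had values of 0.06 and 0.08 with 95% confidence intervals of -0.09 to 0.22 and -0.07 to 0.23. Nhp2 reached 127 and 132 TPM and was higher by 0.24 ± 0.04 (limma adjusted p = 0.00218), a call that was lost without LPS library A or B or Met + LPS library B (0.0152, 0.0111 and 0.0127). Dkc1 was at 13.5 and 15.3 TPM and Gar1 at 20.6 and 23.1 TPM with Met + LPS, each above both LPS libraries. Their values of 0.35 ± 0.09 and 0.37 ± 0.14 did not pass (limma adjusted p = 0.0177 and 0.0689). Nop10, the smallest box H/ACA protein, had a value of -0.13.

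For large-subunit assembly 6 of 16 genes were higher and 1 was lower with metformin, where 14.5% and 18.0% of all tested genes were. Their median was 0.15, against -0.03 for all tested genes. Gnl3 encodes the nucleolar GTPase nucleostemin, known from stem and tumour cells (chr14:31012433-31019152). It was at 27.0 and 26.5 TPM in untreated, 21.9 and 22.7 TPM in LPS and 38.3 and 37.6 TPM in Met + LPS libraries, with LPS lowest and Met + LPS highest. The change was 0.74 ± 0.04 (limma adjusted p = 4.90e-05). Rrp1b was higher by 0.56 ± 0.11 at 3.69 and 4.42 TPM (limma adjusted p = 0.00589), which left it under both untreated libraries. Mrto4, Noc3l, Ppan and Gtpbp4, all pre-ribosome assembly factors, were higher by 0.49, 0.45, 0.37 and 0.23. The calls of Rrp1b, Gtpbp4 and Bop1 were each lost without any 1 of the 4 libraries, with limma adjusted p of 0.0112 to 0.0343 for Rrp1b, 0.0125 to 0.0327 for Gtpbp4 and 0.0164 to 0.0495 for Bop1. Of the PeBoW genes, Bop1 was at 36.7 and 38.0 TPM and lower, with a change of -0.21 ± 0.04 (limma adjusted p = 0.00916). The call of Bop1 was lost upon rescaling (-0.19, limma adjusted p = 0.0128). Pes1 at 69.2 and 72.6 TPM and Wdr12 at 5.07 and 5.26 TPM had values of -0.05 and 0.25 that missed the threshold. Further assembly factors that did not pass were the methyltransferase Nop2 (0.11), Nop16 (0.12), Nip7 (0.17), Rrp15 (0.12) and the helicase Ddx18 (-0.05). Rrs1 had a value of -0.13 with a 95% confidence interval of -0.30 to 0.04. Noc2l, at 116 and 117 TPM, had a value of 0.12 (limma adjusted p = 0.0427). In late small-subunit assembly Rrp12 alone passed, with 0.48 ± 0.09 (limma adjusted p = 0.00522). Its call was likewise lost without any 1 library (0.0118 to 0.0353), while Nob1, Tsr1 and Ltv1 had positive values of 0.32, 0.18 and 0.17 that missed the threshold.

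Lastly, Met + LPS was compared with untreated BMDMs, a comparison that shares its libraries with both of the others. On the TPM scale 24 members were higher, against 16.3% of all tested genes, and 13 were lower, against 58.8%. The members' median was 0.11 and that of all genes -0.48, and 48 of 54 members lay above the latter. After rescaling 42 members were higher (33.4% of all genes) and 1, Imp3, was lower (29.7% of all genes), with a median of 0.63. The study set no cut-off for this comparison. Its cut-off of 2 for LPS vs. untreated was passed here by no member on the TPM scale, against 5.35% of all tested genes. After rescaling Rrs1 alone passed it (2.19), against 5.25%. All 24 higher calls held on both scales. Without untreated library A or B, 17 members were higher and 8 were lower on the TPM scale in either case, and without untreated library B the median was 0.17. Side by side with the LPS values, the changes against untreated cells on the TPM scale were 1.66 in Met + LPS and 1.79 in LPS for Rrs1, 1.45 and 0.98 for Nop58, and 0.82 and 1.26 for Wdr43. For Gtpbp4 they were 0.99 and 0.76, and for Imp3 -0.95 and -1.52. Utp14a and Gnl3 were on opposite sides, at 0.45 and 0.49 in Met + LPS against -0.60 and -0.25 in LPS, though after rescaling the LPS values were -0.11, which did not pass, and 0.25. The lower calls on the TPM scale with Met + LPS included Ubtf (-0.60), Pes1 (-0.57), Rrp1b (-0.53), Wdr12 (-0.51) and Bop1 (-0.44), which after rescaling were -0.07, -0.04, -0.07, -0.05 and 0.09 with no call. The TPM call of Rrp1b was also lost without untreated library A or B or Met + LPS library A (limma adjusted p = 0.0305, 0.0243 and 0.022).

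**Figure D4:**
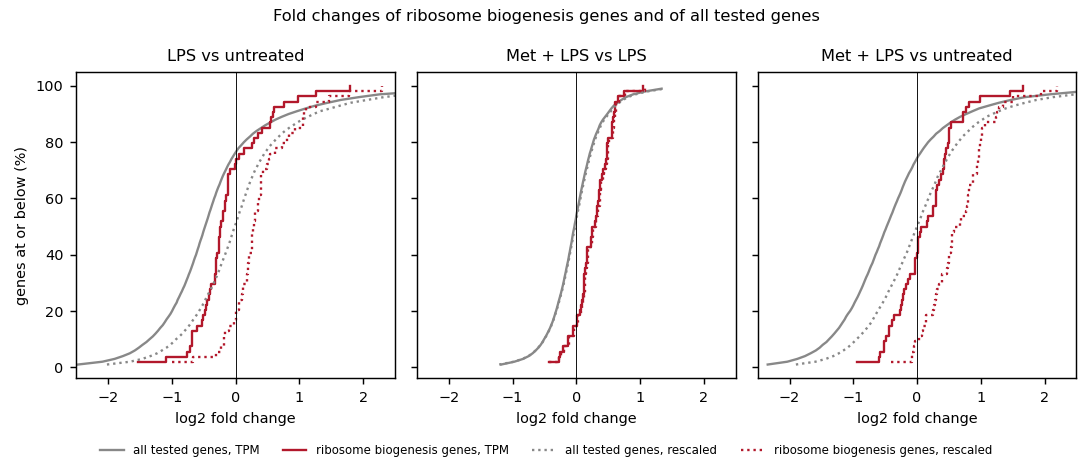
Cumulative share of genes (y axis, percent) by log2 fold change (x axis) for the 54 ribosome biogenesis genes (red) and all 12755 tested genes (grey), on the TPM scale (solid) and after median-ratio rescaling (dotted), in the 3 comparisons. Against untreated cells both curves move right upon rescaling, the members' median from -0.24 to 0.27 for LPS and from 0.11 to 0.63 for Met + LPS, whereas in Met + LPS vs. LPS it went from 0.27 to 0.29.

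Other genes of ribosome production were then examined for comparison. A wider list held 106 further ribosome biogenesis factors, 105 of them tested. With LPS 19 (18.1%) were higher and 51 (48.6%) lower on the TPM scale, where 16.2% and 60.1% of all tested genes were. After rescaling 51 (48.6%) were higher and 14 (13.3%) lower, where 30.6% and 27.6% of all tested genes were. In Met + LPS vs. LPS 20 (19.0%) were higher and 6 (5.71%) lower, with a median of 0.09. The shares of all tested genes were 14.5% and 18.0%, and 46.3% of the members described here were higher. Both lists were drawn up with results of these data known, and their difference was not tested. The largest rises with LPS in the wider list were those of Sbds, which releases an assembly factor from the large subunit (1.87), Rcl1 of the processome (1.77) and Tma16 (1.25), and after rescaling these were 2.39, 2.27 and 1.68. Sbds was at 111 and 101 TPM in untreated, 392 and 386 TPM in LPS and 266 and 253 TPM in Met + LPS libraries. With metformin Sbds and Rcl1 were lower (-0.58 and -0.57, limma adjusted p = 0.00022 and 0.000765). Aatf had the largest rise of the wider list in Met + LPS vs. LPS, 0.60 (limma adjusted p = 0.000463). Of 84 genes for proteins of the cytosolic ribosome itself, 82 were tested. With metformin 31 (37.8%) were higher and none was lower, where 14.5% and 18.0% of all tested genes were. Their median was 0.18. With LPS 66 of these 82 (80.5%) were lower on the TPM scale, where 60.1% of all tested genes were. After rescaling 50 (61.0%) were higher, where 30.6% of all tested genes were, and none was lower. Of 77 tested mitochondrial ribosomal protein genes, 5 (6.49%) were higher and 7 (9.09%) lower with metformin, with a median of -0.01.

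The transcript of Myc itself, whose protein dimerises with Max and binds the sequence CACGTG (an E-box), was at 18.5 and 17.2 TPM in untreated, 12.4 and 12.4 TPM in LPS and 36.0 and 32.7 TPM in Met + LPS libraries. Met + LPS libraries were the highest and did not overlap with any other group. Myc differed by -0.49 with LPS, which was 0.00 after rescaling, and was higher by 1.40 ± 0.06 with metformin (limma adjusted p = 2.08e-05). Mnt, a repressor that competes for Max, was at 67.1 and 62.0 TPM in untreated, 1.99 and 2.81 TPM in LPS and 8.23 and 7.30 TPM in Met + LPS libraries and was higher with metformin by 1.38 (limma adjusted p = 0.000241). Mxd4, Mxd1, Mycl and Max were lower with metformin, with log2 fold changes of -1.07, -0.83, -0.57 and -0.39. Of 10 tested genes of this network 2 (20%) were higher and 4 (40%) lower with metformin, where 14.5% and 18.0% of all tested genes were. These are transcript levels, and whether Myc levels bear on the members was not tested.

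The E-box was searched in RefSeq promoters (GRCm38.p6), which span 250 bases before to 50 bases after the transcript start and were listed for 47 of the 54 members. CACGTG reads alike on both strands and is 1 case of the shorter E-box CANNTG. It occurred in 9 of 47 member promoters (19.1%) and in 17 of 89 promoters of the wider list (19.1%), against 12.2% of 9106 tested genes and 8.09% of 27025 genes with a listed promoter. Only in the 250 bases before the start, it occurred in 8.51% of member promoters and in 10.3% of those of tested genes, and CANNTG was found in 63.8% and 66.8%. The matches are shown because they are all that were found in the member promoters, with the motif in capitals, its flanks in lower case, 5′ to 3′ on the strand of the gene, and the distance of its first base from the transcript start.
Imp4, chr1:34439696-34439725, plus strand, -121: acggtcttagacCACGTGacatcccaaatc
Ltv1, chr10:13193092-13193121, minus strand, 29: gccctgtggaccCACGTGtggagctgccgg
Nop2, chr6:125131811-125131840, plus strand, -60: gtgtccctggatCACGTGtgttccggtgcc
Pes1, chr11:3963965-3963994, plus strand, 3: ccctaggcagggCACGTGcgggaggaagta
Rrn3, chr16:13780472-13780501, plus strand, -215: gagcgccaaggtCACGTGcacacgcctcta
Rrn3, chr16:13780639-13780668, plus strand, -48: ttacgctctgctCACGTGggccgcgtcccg
Tsr1, chr11:74898092-74898121, plus strand, 25: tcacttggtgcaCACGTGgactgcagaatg
Utp18, chr11:93885769-93885798, minus strand, -20: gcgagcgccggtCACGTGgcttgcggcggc
Utp20, chr10:88826765-88826789, minus strand, 38: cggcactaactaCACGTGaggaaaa
Wdr43, chr17:71616220-71616249, plus strand, 18: cgcccgggcgaaCACGTGgctgccgcggag

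Of these 10 motifs 5 lay before and 5 after the start. The 9 genes included Wdr43, Ltv1 and Tsr1, which were higher with LPS, and Pes1 and Imp4, which were lower on the TPM scale but not after rescaling. Utp20 was lower with LPS by TPM (-0.19) and higher after rescaling (0.31). In Met + LPS vs. LPS 2 of the 9 genes with the motif were higher (Utp18 and Utp20) and 1 was lower (Wdr43), with a median of 0.13. Of the 38 genes without it 20 were higher and none was lower, with a median of 0.32. Of all tested genes 14.5% were higher and 18.0% lower, and the difference by motif was not tested. Neither Utp14a nor Gnl3 had the motif in this window. A match does not show binding, and the absence of a match holds only for these letters in this window.

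Sequence similarity and overlap limit some of these values. Less than 80% of the 31-base stretches of Ddx18 (34.5%), Pes1 (65.2%), Tsr1 (66.8%), Npm1 (70.6%), Nop56 (77.6%) and Fbl (78.2%) were found in no other annotated transcript. In 18 members an exon overlapped with an exon of a gene on the opposite strand, which came to over 10% of the exon bases in Utp14a, in Tsr1 (32.3%, with Srr at 4.23 TPM on average) and in Noc2l (20.9%, with Samd11 at 0.140 TPM). Whether reads were counted by strand is not given in the sources used here, so that reads of such pairs cannot be told apart.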

How the data were processed

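PolyA RNA of mouse BMDMs was sequenced in 2 libraries for each of 3 groups. Per the labels, reads were aligned to GRCm38 with STAR 2.6.1d and counted with featureCounts of Subread 1.6.3, and the authors deposited TPM for 54532 genes in each library, with replicates kept apart. How counts became TPM is not given in the sources used here, and TPM hide differences in total RNA per cell. Dividing TPM by the weight of 1 read over the exon length in GENCODE M21, matched for 54495 genes, gave whole reads (tolerance 0.05) for 96.1% to 96.6% of values, from which depth was taken. Genes were tested if 2 or more libraries reached 1 TPM. Log2(TPM + 1) of all 6 libraries was fitted with limma 3.58.1 (R 4.3.3, empirical Bayes with a mean trend, 3 residual degrees of freedom), and p-values were adjusted over all tested genes. The fit was also run on simulated reads in which a small set of genes changed. No general shift was simulated, so that this run does not bear on the choice of scaling. An exact permutation test of 2 against 2 libraries cannot go below p = 0.333 and was not used. Median-ratio rescaling, other pseudocounts and filters, voom on recovered reads, the replicate letters as a block and leaving out libraries were alternatives. The members and gene lists were chosen with earlier results of these data known. Library values are shown for the 4 largest rises and falls among called members in each comparison and for the most abundant and most changed member of each role; a few further members were added after their values were seen. The motif was searched in RefSeq promoters, with none used for Fbl, Rrs1, Utp6, Bop1, Npm1, Rrp12 and Dcaf13.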

Additional observations from a re-analysis of the deposited data

How the results depend on the processing

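Scaling decided the direction of the list in LPS vs. untreated, while in Met + LPS vs. untreated its median was positive on both scales. With median-ratio scaling the members were 32 higher and 4 lower in LPS vs. untreated (median 0.27) and 42 and 1 in Met + LPS vs. untreated (0.63). With voom on recovered reads and the same scaling they were 35 and 6 (0.28) and 44 and 1 (0.66). Under median-ratio scaling the sign turned from negative to positive for 29 of the 54 members in LPS vs. untreated and for 17 in Met + LPS vs. untreated. Among the members that the rule on largest changes and levels names, these were Bop1 (0.28), Dkc1 (0.18), Gnl3 (0.25), Mphosph10 (0.39), Noc2l (0.26), Nop56 (0.19), Npm1 (0.36) and Polr1c (0.26) in LPS vs. untreated, and Bop1 (0.087), Noc2l (0.39), Nop56 (0.27), Polr1a (0.14), Rrp12 (0.31) and Utp15 (0.49) in Met + LPS vs. untreated. On the TPM scale a log2 fold cut-off of 2 left 0 higher and 0 lower members in both comparisons with untreated. The study set this cut-off for LPS vs. untreated only. Its cut-off of 0.7 left 2 and 0 members in Met + LPS vs. LPS. With median-ratio scaling Rrs1 passed the cut-off of 2 in both comparisons with untreated (2.30 and 2.19). In Met + LPS vs. LPS 1 member was lower without the filter, with median-ratio scaling, with only the groups compared or without the trend. There libraries did not overlap for 41 members on the higher and 6 on the lower side, against 33.8% and 40.0% of all tested genes.

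Leaving out 1 library gave 16 to 24 lower members in LPS vs. untreated, 1 to 1 in Met + LPS vs. LPS and 8 to 13 in Met + LPS vs. untreated, whose median ran from 0.11 to 0.17. Values near 0 changed sign, with ranges of -0.063 to 0.32 for Gar1 and -0.072 to 0.082 for Utp3 in LPS vs. untreated, -0.065 to 0.089 for Utp3 in Met + LPS vs. LPS, and -0.040 to 0.13 for Dkc1 and -0.085 to 0.027 for Utp15 in Met + LPS vs. untreated. A pseudocount of 0.1, a minimum of 5 TPM, voom without rescaling and an adjusted p under 0.05 kept each count within 1.5 times its value and each median on its side. The deviations of same-lettered libraries correlated at -0.00 to 0.03 across genes. No shared deviation was thus seen, but this cannot tell whether the letters pair the libraries by mouse or batch. With the letters as a replicate block 11 and 27, 25 and 2, and 24 and 12 members were higher and lower in LPS vs. untreated, Met + LPS vs. LPS and Met + LPS vs. untreated. The CANNTG motif was in 63.8% of member promoters and CACGTG before the start in 8.51%. With 2 libraries a group, small differences stay undetected, and a p that misses the threshold does not show equal levels. Fits without 1 library are weaker still, so that a lost call does not show dependence on the library left out.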
